A study of Rattus norvegicus with 15 samples.

Results

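Solute carriers are the membrane proteins that move amino acids, sugars, ions, metals, vitamins and nucleotides in and out of cells and organelles. The genes described here are the autosomal ones whose symbol starts with Slc or Slco and that are listed for at least 1 of 3 pairwise comparisons of rat adrenal medullary tissue. The mitochondrial carriers (Slc25) were left out, as were 5 genes by name (*Slc2a3*, *Slc16a1*, *Slc18a1*, *Slc18a2* and *Slc6a2*). Of 8621 listed genes, 171 have a symbol that starts with Slc. After 24 Slc25 genes, 6 genes that are not autosomal and those 5 genes were set aside, 136 remained, from 42 families. Among them, *Slc9a3r1* and *Slc9a3r2* are not carriers by their known role and encode scaffold proteins that bind the exchanger.

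The RNA came from the adrenal medulla of 15 rats after the cortex had been cut away. The groups were 5 wild-type rats (WT; strain spelled Sprague-Dawely in the labels), 5 MENX rats with adrenal medullary hyperplasia (HYP) and 5 MENX rats with pheochromocytoma (PCC), a tumor of the catecholamine-secreting chromaffin cells. The study describes these tumors as a mix of earlier and advanced ones, which the labels do not tell apart, so the PCC group was not split by stage. MENX rats carry a germline frameshift mutation in *Cdkn1b*, which encodes the cell cycle inhibitor p27, and develop medullary hyperplasia and then pheochromocytoma. WT and PCC rats were 7 to 9.5 months old and HYP rats 4 to 5 months old, so age and genotype cannot be told apart in HYP vs. WT, nor age and stage in PCC vs. HYP.

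The family number of a solute carrier groups proteins of related sequence, and members of a family often share a substrate. Carriers of the plasma membrane mostly run on the sodium, proton or chloride gradients that ion pumps build up, and others fill synaptic vesicles, secretory granules and lysosomes. In the chromaffin cell they are known above all for taking up amine precursors, vitamin C and released transmitter, while the steroid-making cells of the adrenal cortex import vitamin C and fatty acids in bulk.

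The libraries had 16315018 to 23831269 reads on genes. The deposited tables list only the genes that the authors had already called in the same comparison, 7683 for the tumors against WT, 4406 for the hyperplastic stage against WT and 3360 for tumors against hyperplasia, so the calls below are not independent evidence. Levels are given as CPM, read counts relative to the library's total after TMM normalization, and fold values are ratios of mean CPM. Calls are from edgeR's quasi-likelihood test at a Benjamini-Hochberg adjusted *p* under 0.05, and measure the spread between these rats. In bulk tissue, fewer cells of a type and less RNA per cell cannot be told apart. The summed CPM of 9 adrenal cortex markers, among 12 of 15 listed, ranged from 26610 to 53790 in WT, from 12090 to 32840 in HYP and from 866.2 to 13930 in PCC. The summed CPM of 8 chromaffin markers, among 9 of 12 listed, ranged from 1928 to 9226 in WT, from 10810 to 15260 in HYP and from 18290 to 35290 in PCC. Within groups, WT replicate 5 had the lowest chromaffin sum and PCC replicates 4 and 2 the lowest cortex sums, 866.2 and 2845. The endothelial markers moved too: their summed CPM over 6 of 10 genes ranged from 468.2 to 590.9 in WT, from 313.2 to 414.7 in HYP and from 191.9 to 359.1 in PCC, with 5 of 7 tested called lower and 1 higher in PCC vs. WT. Of 7 sustentacular and Schwann cell markers tested, 5 were higher and 2 lower in PCC vs. WT, the lower ones including *S100b* (log2 fold change -3.22), and their sums overlapped between the groups (58.3 to 115.3 CPM in WT and 59.2 to 109.2 in PCC). The part of the chromaffin, endothelial and sustentacular shifts in the carrier results was not tested. The part of the cortex shift was tested only with the cortex level as a covariate, which left few calls (14 higher and 7 lower members in PCC vs. WT) in a design where that level separates WT from PCC without overlap.

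In PCC vs. WT, 7 of 8 sugar carriers, 9 of 11 members of the nucleotide sugar family and all 5 sodium-calcium exchangers tested were called higher in the tumors. Both glycine transporters (*Slc6a5* and *Slc6a9*), the vitamin C importer *Slc23a2* and the amino acid exchanger *Slc1a4* were lower. With the cortex level in the fit, *Slc6a9*, *Slc23a2* and *Slc1a4* kept their calls and *Slc6a5* did not. Most called rises of the nucleotide sugar family and those of all sodium-calcium exchangers but *Slc8a3* were lost. Among sugar carriers, *Slc2a6*, *Slc2a12* and *Slc2a13* kept their calls. *Slc6a17*, *Slc36a2*, *Slc12a1*, *Slc11a2* and *Slc29a4* also lost theirs. Of the 120 members listed for this comparison, 112 had enough counts to be tested: 59 were higher in PCC, 38 were lower and 15 did not pass. The share called was 86.6% of the members and 85.2% of all 7001 genes tested, so the members were called about as often as the rest of the table. Background shares were 46.7% for higher and 38.5% for lower. The groups did not overlap for 64 members, 57.1% against 64.7% of all genes tested. The median log2 fold change was 0.65 for the members and 0.44 for all genes tested. Without WT replicate 5 the counts were 50 higher and 36 lower, and without PCC replicate 4 they were 51 and 31. The share of higher calls was 60.8% among the members called and 54.8% among all genes called. Scaling samples to the listed read totals gave 80.2% and 76.3%, and to the recovered totals 76.2% and 68.9%. These scalings shifted the median of all genes by 0.50 and 0.29 on the log2 scale. With the authors' size factors the shares were 56.5% and 51.1%, and with DESeq2 56.0% and 49.1%. No called member changed direction under any scaling.

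**Figure D1:**
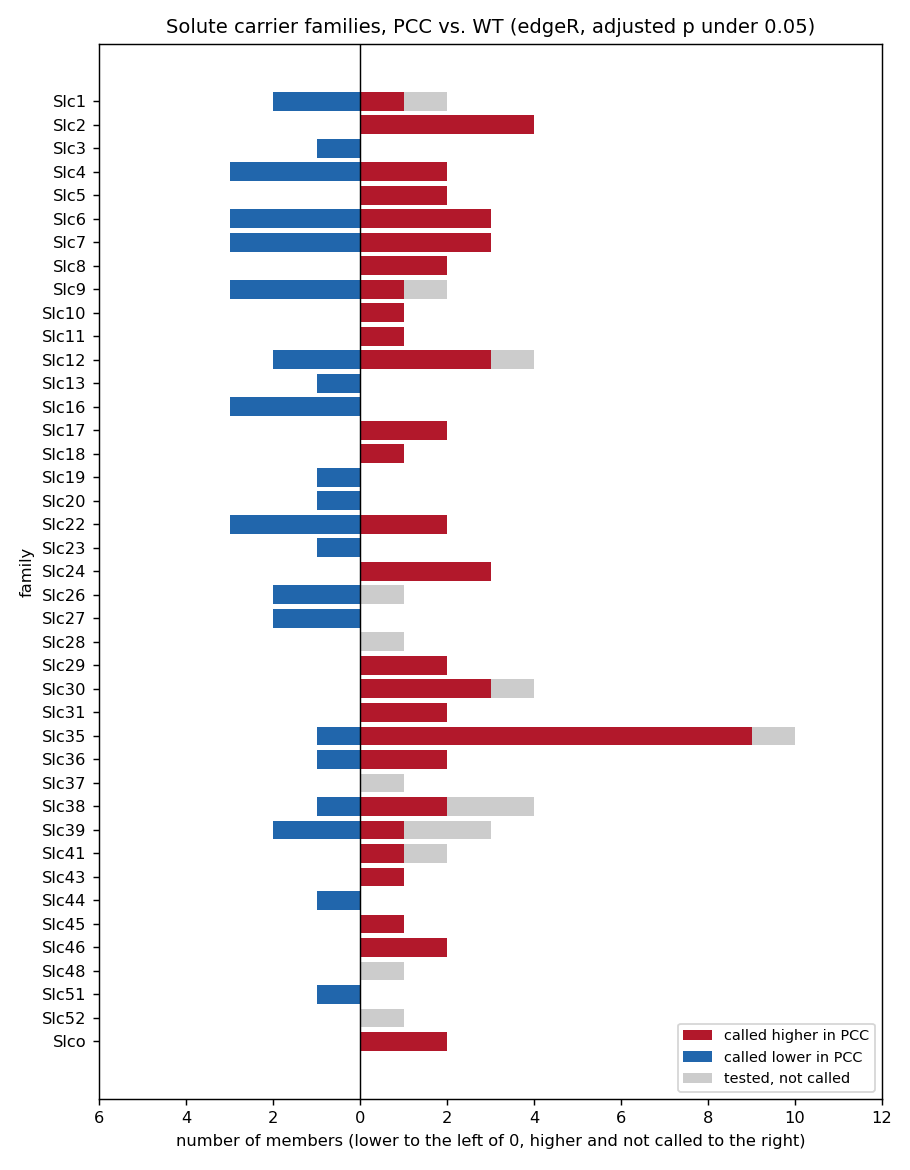
Number of members in each solute carrier family that were called higher in PCC (red, right), called lower in PCC (blue, left) or tested and not called (grey, right) in PCC vs. WT by edgeR's quasi-likelihood test. The nucleotide sugar family Slc35 had the most members called higher (9), and Slc2 had 4 higher and none lower, while Slc16 had 3 lower and none higher.

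Among carriers of amino acids and neurotransmitters (families 1, 3, 6, 7, 17, 18, 32, 36, 38 and 43), 29 were tested in PCC vs. WT, of which 15 were higher and 11 lower. Both glycine transporters of family 6 fell, 1 of them among the most abundant carriers of the WT samples. *Slc6a5* (Rn06, chr1:105284753-105336363) encodes GlyT2, which imports glycine into neurons that release it. Its level was 1302, 1470, 1075, 1213 and 1625 CPM in WT replicates 1 to 5, 636, 438, 778, 508 and 420 in HYP and 403, 62.8, 276, 25.1 and 399 in PCC. All WT samples were above all HYP samples, and all HYP samples above all PCC samples, in which replicates 2 and 4 were far below the other tumors. The gap between HYP and PCC was narrow, from 420 CPM in the lowest HYP sample to 403 in the highest tumor, and *Slc6a5* was not listed for PCC vs. HYP, so that step has no test. The PCC mean was 5.74-fold below WT (log2 fold change -2.56, SE 0.63, adjusted *p* = 0.0092) and the HYP mean 2.40-fold below WT (-1.32, SE 0.21, adjusted *p* = 0.00197). WT replicate 5, highest in *Slc6a5*, had the lowest chromaffin sum (1928 CPM) and a cortex sum of 51726 CPM. The cells that hold this transcript were not tested. The tumors lowest in *Slc6a5* were also lowest in the cortex sum, and with that level in the fit its log2 fold change in PCC vs. WT was -0.90 (SE 0.48, adjusted *p* = 0.378).

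*Slc6a9* (chr5:136669674-136703697) encodes GlyT1, the glycine transporter of glia and of many other cells. Its level was 24.1 to 65.5 CPM in WT, 12.1 to 21 in HYP and 5.01 to 10.1 in PCC. It fell at both steps with no overlap, by 3.25-fold from WT to HYP (adjusted *p* = 0.00197) and by 2.07-fold from HYP to PCC (adjusted *p* = 0.024), the second of which lost its call without PCC replicate 2 or 3 or HYP replicate 3 or 4. In PCC vs. WT its log2 fold change was -2.80 (SE 0.31, adjusted *p* = 0.000147), and -2.70 with the cortex level in the fit (adjusted *p* = 0.0101). *Slc32a1*, which loads glycine and GABA into synaptic vesicles, was too low to be tested. It had between 1 and 42 counts in the WT libraries, 0 to 3 in HYP and 0 in every PCC library. The mean WT level was 9.71-fold the mean CPM of 3 counts per PCC library.

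The promoters of both glycine transporters are shown because these 2 carriers were the only members, of 85 with values in every sample, whose samples lay lower with no overlap at either step, and the promoter of *Slc35d3*, a carrier described below, because it had the highest FPKM in PCC and also moved with no overlap at either step, upward. Sequences are from RefSeq (GRCr8), from 250 bases before to 50 after the start of the gene, and capitals mark ACGTG and GCGTG on either strand, which are the cores of hypoxia and related response elements.
Slc6a5 (chr1:108781303-108781602, plus strand): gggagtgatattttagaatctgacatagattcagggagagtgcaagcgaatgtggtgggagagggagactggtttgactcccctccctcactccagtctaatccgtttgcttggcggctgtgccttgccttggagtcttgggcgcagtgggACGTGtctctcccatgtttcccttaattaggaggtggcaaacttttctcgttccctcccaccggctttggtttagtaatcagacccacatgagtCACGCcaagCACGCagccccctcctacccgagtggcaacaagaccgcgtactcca
Slc6a9 (chr5:136659826-136660125, plus strand): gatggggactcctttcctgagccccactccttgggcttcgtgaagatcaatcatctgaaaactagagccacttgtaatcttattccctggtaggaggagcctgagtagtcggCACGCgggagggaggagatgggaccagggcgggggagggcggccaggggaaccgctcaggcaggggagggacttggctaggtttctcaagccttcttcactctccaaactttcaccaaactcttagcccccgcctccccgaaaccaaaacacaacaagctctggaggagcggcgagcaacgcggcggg
Slc35d3 (chr1:16392731-16393030, minus strand): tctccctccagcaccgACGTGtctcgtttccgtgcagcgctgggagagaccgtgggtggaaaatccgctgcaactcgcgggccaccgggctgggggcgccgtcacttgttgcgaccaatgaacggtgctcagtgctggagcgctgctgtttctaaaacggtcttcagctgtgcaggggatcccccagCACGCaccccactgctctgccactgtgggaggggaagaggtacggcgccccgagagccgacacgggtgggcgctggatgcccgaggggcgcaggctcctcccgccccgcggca
ACGTG occurred once in the windows of *Slc6a5* and *Slc35d3* and not in that of *Slc6a9*, and GCGTG occurred 2, 1 and 1 times in *Slc6a5*, *Slc35d3* and *Slc6a9*. Of the 136 members, 106 matched a promoter by symbol. ACGTG was in 31.9% of the 47 promoters of members higher in PCC than WT, in 28.6% of the 28 of members lower in PCC and in 19.7% of all 27457 promoters. For GCGTG the shares were 46.8%, 60.7% and 31.1%, so both letter strings were found in rising and falling members alike. These are matches of letters, not sites shown to be bound.

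Other amino acid carriers that fell include *Slc1a4* (chr14:104581190-104612597), which encodes the alanine, serine and cysteine exchanger ASCT1. WT replicates 1 to 5 had 136, 175, 89.2, 78.8 and 9.39 CPM, HYP had 15.5 to 29.6 and PCC 6.92 to 7.47. WT replicate 5 lay far below the other WT samples and below every HYP sample, but above every PCC sample. The level was lower in HYP than in WT by the test (log2 fold change -2.16, adjusted *p* = 0.0174), with overlapping groups. The level was 13.7-fold lower in PCC than in WT (log2 fold change -3.85, SE 0.60, adjusted *p* = 0.000819) and 3.19-fold lower than in HYP (adjusted *p* = 0.00164), with no overlap in either. *Slc7a5*, the large neutral amino acid exchanger LAT1 that also carries catecholamine precursors, had 60.7 to 104 CPM in WT replicates 1 to 4, 9.25 in WT replicate 5 and 7.66 to 18.8 in PCC. Its mean was 4.85-fold lower in PCC (adjusted *p* = 0.00563), although WT replicate 5 lay among the tumors. *Slc3a2*, which encodes the heavy chain that LAT1 needs at the membrane, was 1.53-fold lower (adjusted *p* = 0.0113). In *Slc6a20*, an imino acid transporter, WT values ran from 0.427 in replicate 5 to 22 in replicate 2, and PCC values from 0.775 to 1.40, a 9.68-fold lower mean with overlapping groups (adjusted *p* = 0.00664). *Slc38a2*, the sodium-coupled neutral amino acid transporter SNAT2, was among the most abundant carriers and fell from 438 to 562 CPM in WT to 130 to 301 in PCC (2.35-fold, adjusted *p* = 0.0016), with no overlap. Its neighbor *Slc38a1*, or SNAT1, moved the other way, from 7.02 to 17.8 CPM in WT to 22.9 to 46.5 in PCC (2.72-fold higher, adjusted *p* = 0.00219).

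Several amino acid carriers known from lysosomes and vesicles were higher in PCC. *Slc7a14*, a lysosomal relative of the cationic amino acid transporters, had 1.85 to 6.80 CPM in WT, 5.77 to 29.5 in HYP and 18.9 to 59.5 in PCC, 8.68-fold above WT in the tumors (log2 fold change 3.06, SE 0.43, adjusted *p* = 0.0005). *Slc36a1* and *Slc36a4*, proton-coupled amino acid carriers known from lysosomes and endosomes, were 3.18-fold and 3.91-fold higher in PCC than in WT (adjusted *p* = 0.000927 and 0.000325). Their relative *Slc36a2*, PAT2, was 6.54-fold lower (adjusted *p* = 0.0132), with 0.194 to 5.46 CPM in PCC and 7.32 to 28.4 in WT. *Slc6a17*, a carrier of neutral amino acids into synaptic vesicles, had 7.89 to 48.6 CPM in WT, 26 to 42.4 in HYP and 69.3 to 240 in PCC. WT and HYP overlapped and every PCC sample was above both, 3.66-fold over WT (adjusted *p* = 0.0129) and 3.72-fold over HYP (adjusted *p* = 0.00727). *Slc43a2*, the branched-chain amino acid transporter LAT4, rose 5.14-fold (log2 fold change 2.33, SE 0.24, adjusted *p* = 0.000114), from 8.75 to 11.7 CPM in WT to 29.2 to 70.2 in PCC. The vesicular carriers *Slc17a9* (ATP) and *Slc18b1* (polyamines) were 3.29-fold and 2.02-fold higher (adjusted *p* = 0.0184 and 0.00295).

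**Figure D2:**
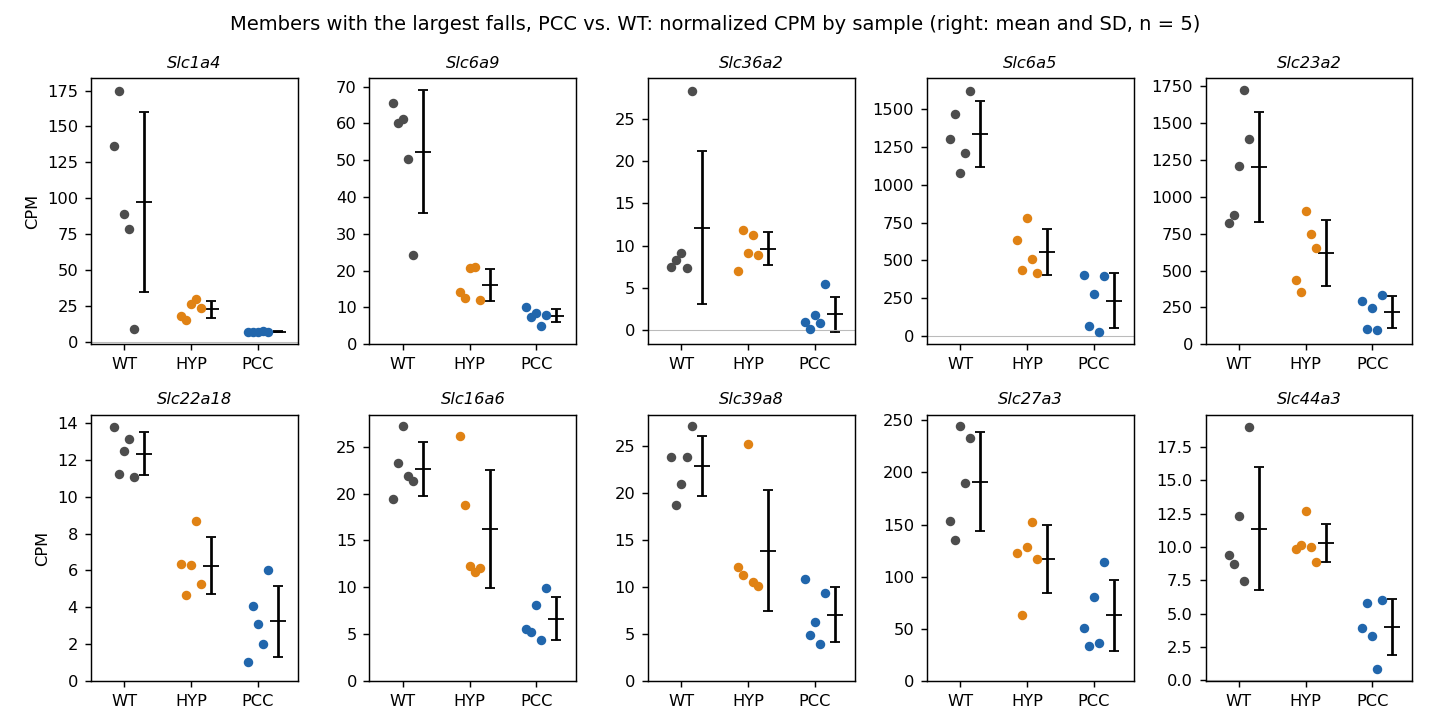
CPM of the 10 members with the largest falls in PCC vs. WT among those called, with at least 1 CPM on average and no overlap between the groups; points are samples in replicate order, and the bar to the right of each group is its mean with the SD (n = 5). *Slc6a5* and *Slc6a9* step down from WT to HYP to PCC without overlap, whereas in *Slc36a2* and *Slc44a3* the HYP samples overlapped WT and lay above the PCC samples.

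All 8 sugar carriers tested in PCC vs. WT were fitted higher, and 7 of them were called higher (median log2 fold change 1.76); *Slc37a1*, a glucose-6-phosphate carrier of the endoplasmic reticulum, had a log2 fold change of 1.04 and was not called. *Slc2a13* (chr7:132430853-132757558) encodes HMIT, a proton-coupled importer of myo-inositol. Its level was 6.59, 7.56, 5.80, 8.01 and 5.83 CPM in WT, 12, 23.2, 15.7, 13.2 and 17.8 in HYP and 41.2, 46.5, 45.7, 85.6 and 23.6 in PCC. The groups did not overlap at either step, although PCC replicate 5 was barely above the highest HYP sample. The PCC mean was 7.18-fold above WT (log2 fold change 2.81, SE 0.32, adjusted *p* = 0.000172), and the HYP mean 2.43-fold above WT (adjusted *p* = 0.00334).

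*Slc2a12*, the glucose transporter GLUT12, was low but also stepped up without overlap, from 0.782 to 1.13 CPM in WT to 1.23 to 2.03 in HYP and 2.71 to 4.78 in PCC (3.98-fold above WT, adjusted *p* = 0.000502); both smaller steps were called, but lost their call without several single samples. *Slc2a6* and *Slc2a8*, glucose carriers found on lysosomes and other inner membranes, were 3.04-fold and 1.85-fold higher than in WT (adjusted *p* = 0.000478 and 0.0085). *Slc2a1*, the ubiquitous glucose transporter GLUT1, was not listed for PCC vs. WT. It had 20.8 to 27.6 CPM in WT, 14.8 to 23.1 in HYP and 21.7 to 86.7 in PCC, the last value again in PCC replicate 4, and passed the test in neither listed comparison (adjusted *p* = 0.121 against WT in HYP and 0.0994 between PCC and HYP). *Slc45a1*, a proton-coupled sugar carrier of the brain, was 5.13-fold higher in PCC than in WT (adjusted *p* = 0.00169) and 3.71-fold higher than in HYP (adjusted *p* = 0.00275), with 16.3 to 31.6 CPM in PCC against 1.21 to 6.80 in WT and 4.64 to 7.73 in HYP. *Slc5a10*, the renal sugar transporter SGLT5, was low in every group; its level of 0.777 to 5.44 CPM in PCC was 7.85-fold above WT (log2 fold change 2.87, adjusted *p* = 0.00274), or 2.28 on the log2 scale without PCC replicate 4.

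Ion exchangers and cotransporters (families 4, 8, 9, 12, 24 and 26) were split, with 11 of 24 higher and 10 lower in PCC vs. WT. *Slc9a2* (chr9:47386626-47491907), the sodium-proton exchanger NHE2, had 2.64, 3.53, 2.43, 2.25 and 0.996 CPM in WT, 6.40, 6.42, 3.35, 5.34 and 6.79 in HYP and 22.8, 17.7, 25.7, 74.4 and 14.3 in PCC. PCC replicate 4 was well above the other tumors, all of which were above every HYP sample. The tumor mean was 13.1-fold above WT (log2 fold change 3.65, SE 0.52, adjusted *p* = 0.000547; 3.03 without PCC replicate 4) and 5.47-fold above HYP (adjusted *p* = 0.01).

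*Slc9a3*, the sodium-proton exchanger NHE3 of kidney and gut, went the other way, from 0.213 to 8.65 CPM in WT and 0.709 to 8.01 in HYP to 0 to 0.775 in PCC. Its mean was 13.3-fold below WT (log2 fold change -3.78, SE 0.95, adjusted *p* = 0.0101), with WT replicate 5 at 0.213 within the tumor range; the log2 fold change was -4.40 without PCC replicate 1. *Slc12a1* (chr3:117421604-117498367), the kidney cotransporter NKCC2 that loop diuretics block, was near absent in WT (0 to 0.313 CPM) and HYP (0 to 0.127 CPM) and had 2.32, 2.72, 1.31, 10.7 and 0.773 CPM in PCC. Every tumor was above every other sample. The log2 fold change was 4.33 in PCC vs. WT (SE 0.89, adjusted *p* = 0.00347) and 5.43 in PCC vs. HYP (SE 0.92, adjusted *p* = 0.00717), or 3.34 and 4.46 without PCC replicate 4. The HYP libraries held only 0 to 2 reads of it, so the second value depends on the prior count of the fit. Of 10 kidney tubule markers, 2 were listed, and their summed CPM ranged from 6.26 to 10.02 in WT and from 11.8 to 30.8 in PCC; whether this bears on the kidney-type carriers was not tested.

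All 5 sodium-calcium exchangers tested (families 8 and 24) were called higher in PCC. *Slc8a3* (chr6:104891376-105097054), NCX3, had 6.97, 11.8, 6.80, 5.95 and 2.84 CPM in WT, 21.7, 24.8, 19.1, 17.3 and 21.1 in HYP and 48.3, 35.1, 49.5, 57.4 and 39.4 in PCC, with no overlap at either step. The tumors were 6.68-fold above WT (log2 fold change 2.68, SE 0.34, adjusted *p* = 0.000318) and 2.21-fold above HYP (adjusted *p* = 0.00702). *Slc8a2*, NCX2, was highest in HYP (6.13 to 15.0 CPM) and spread widely in PCC (2.71 to 12.5 CPM, against 1.36 to 3.43 in WT). It was called in HYP vs. WT (3.99-fold, adjusted *p* = 0.00221), and its call in PCC vs. WT (adjusted *p* = 0.034) was lost without PCC replicate 1 or 2 or any WT replicate but the third. The potassium-dependent exchangers *Slc24a1*, *Slc24a4* and *Slc24a5* were the other 3, *Slc24a4* with a call that was lost without any sample but PCC replicate 4 or WT replicate 5. *Slc24a5*, best known from pigment cells, had 36.5 to 90.6 CPM in PCC and 19.3 to 31.6 in WT (2.25-fold, adjusted *p* = 0.00662).

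In the bicarbonate family Slc4, *Slc4a8*, a sodium-driven chloride-bicarbonate exchanger of neurons, rose 5.32-fold in PCC vs. WT (log2 fold change 2.36, SE 0.34, adjusted *p* = 0.000588) and 3.79-fold in HYP vs. WT (adjusted *p* = 0.0045). *Slc4a11*, a proton and water conductor of the cornea and kidney, had a wide spread in WT: 104, 133, 28.2, 44.9 and 3.56 CPM. HYP samples had 7.25 to 9.47 and PCC samples 1.94 to 6.41, so WT replicate 5 lay below every HYP sample. The log2 fold change was -4.17 in PCC vs. WT (SE 0.80, adjusted *p* = 0.00246) and -3.01 in HYP vs. WT (SE 0.67, adjusted *p* = 0.0106). WT replicates 1 and 2, which had the highest values of *Slc4a11*, *Slc1a4* and *Slc6a20*, also had the lowest cortex sums of the WT group (26932 and 26607) and the highest chromaffin sums (7252 and 9226). Among the cation-chloride cotransporters, the potassium-chloride exporter gene *Slc12a4* fell (1.70-fold, adjusted *p* = 0.0025), and the sodium-potassium-chloride importer gene *Slc12a2* rose 1.58-fold (adjusted *p* = 0.00626).

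Metal carriers (families 11, 30, 31, 39, 41 and 48) were called higher in 8 and lower in 2 of 15 members tested. *Slc39a6* (chr18:16522982-16543992), the zinc importer ZIP6, had 37.7, 49.8, 37.9, 43.3 and 19.6 CPM in WT, 88.9, 123, 101, 89.8 and 104 in HYP and 505, 318, 372, 1056 and 165 in PCC. There was no overlap at either step, and the tumors spread from 165 to 1056 CPM with replicate 4 at the top. The PCC mean was 12.8-fold above WT (log2 fold change 3.64, SE 0.49, adjusted *p* = 0.000409) and 4.77-fold above HYP (adjusted *p* = 0.0113), and the HYP mean was 2.69-fold above WT (adjusted *p* = 0.00201). With the cortex level in the fit, PCC vs. WT gave a log2 fold change of 2.34 (adjusted *p* = 0.0208). Among the other zinc importers, *Slc39a8* (ZIP8, which also imports manganese) was 3.24-fold lower in PCC than in WT (adjusted *p* = 0.000937) and *Slc39a7* (ZIP7, which releases zinc from the endoplasmic reticulum) 1.49-fold lower (adjusted *p* = 0.0109). The zinc exporter gene *Slc30a1* was 2.43-fold higher (adjusted *p* = 0.00338).

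*Slc31a1*, the high-affinity copper importer CTR1 that supplies copper to enzymes such as dopamine beta-hydroxylase, was highest at the hyperplastic stage. It had 68.8 to 171 CPM in WT, 246 to 545 in HYP and 127 to 364 in PCC. HYP was 3.43-fold above WT with no overlap (log2 fold change 1.72, SE 0.27, adjusted *p* = 0.00184). PCC was 2.03-fold above WT (adjusted *p* = 0.0313), a call that was lost without PCC replicate 2 or 3 or any WT replicate but the second. *Slc11a2*, the iron and manganese importer DMT1, had 32.9 to 58.9 CPM in WT, 53.9 to 65.2 in HYP and 119, 124, 142, 358 and 122 in PCC. Its rise came between HYP and PCC (2.99-fold, adjusted *p* = 0.0143), and the tumors other than replicate 4 lay close together. In PCC vs. WT, 14 genes from a list of zinc, iron and copper handling proteins were tested. Of these, 3 were higher and 10 lower, where 46.7% and 38.5% of all genes tested were higher and lower. *Hamp*, the iron hormone hepcidin, fell from a mean of 307 CPM in WT to 16.9 in PCC, while *Hfe* rose from 7.91 to 21.3.

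**Figure D3:**
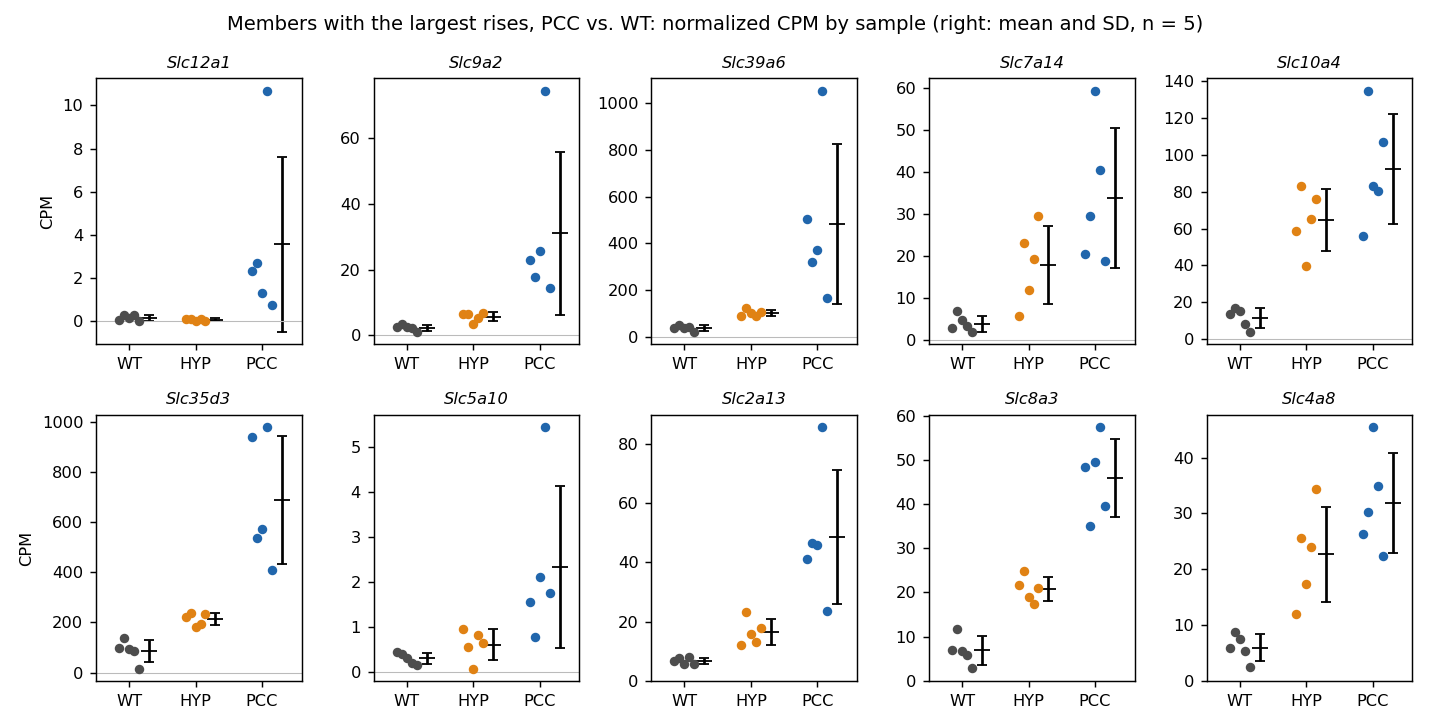
CPM of the 10 members with the largest rises in PCC vs. WT, chosen by the same rule and drawn in the same way as the falls (mean with SD at the right of each group, n = 5). PCC replicate 4, the fourth point of the PCC group, holds the highest value for *Slc12a1*, *Slc9a2*, *Slc39a6*, *Slc35d3*, *Slc5a10*, *Slc2a13* and *Slc8a3*.

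Of 11 nucleotide sugar carriers and relatives (family 35) tested, 9 were higher in PCC than in WT and 1 was lower. *Slc35d3* (chr1:15298526-15301998), a carrier of this family known from the dense granules of platelets, had 96.1, 139, 93.7, 84.6 and 14.7 CPM in WT, 222, 238, 183, 194 and 233 in HYP and 941, 537, 572, 979 and 409 in PCC. All 5 tumors were above all HYP samples, which were above all WT samples, and WT replicate 5 was far below its group. The PCC mean was 8.03-fold above WT (log2 fold change 2.94, SE 0.52, adjusted *p* = 0.00152) and 3.21-fold above HYP (adjusted *p* = 0.00679). With the cortex level in the fit, PCC vs. WT gave 2.25 (adjusted *p* = 0.0684). HYP vs. WT (2.50-fold) narrowly missed the threshold (adjusted *p* = 0.0512) and passed it without WT replicate 2 or WT replicate 5. The other family members moved less: the called rises besides *Slc35d3* had log2 fold changes between 0.42 and 1.25, those of *Slc35e1*, *Slc35e3*, *Slc35e4*, *Slc35f5* and *Slc35g1* were lost when some single samples were left out, and *Slc35f2* fell to a mean of 0.205 CPM from 0.830 in WT (4.06-fold, adjusted *p* = 0.00246).

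Among the carriers of organic anions, cations and bile acids (families 10, 13, 16, 22, 51 and Slco), 5 of 13 tested were higher and 8 were lower. *Slc10a4*, an orphan carrier of synaptic vesicles in cholinergic and monoaminergic neurons, had 3.84 to 16.8 CPM in WT, 39.6 to 82.9 in HYP and 56.1 to 135 in PCC. Its largest step was the first, 5.59-fold in HYP vs. WT (log2 fold change 2.42, SE 0.35, adjusted *p* = 0.0013), and its log2 fold change in PCC vs. WT was 2.95 (SE 0.41, adjusted *p* = 0.000475). Of 5 members of the monocarboxylate family, 3 were tested in PCC vs. WT, and these 3 were lower. *Slc16a1* of this family was left out, so the 3 do not stand for the family as a whole. *Slc16a6*, a ketone body carrier, had 19.4 to 27.2 CPM in WT and 4.40 to 9.88 in PCC (3.42-fold lower, adjusted *p* = 0.000411). *Slc16a12*, a creatine carrier, was 3.45-fold lower (adjusted *p* = 0.0278, lost without PCC replicate 2 or WT replicate 1 or 3). *Slc16a10*, an aromatic amino acid carrier, was 2.26-fold lower (adjusted *p* = 0.00381). In family 22, *Slc22a6*, the renal organic anion transporter OAT1, was 6.86-fold lower and *Slc22a18* 3.82-fold lower (adjusted *p* = 0.00262 and 0.00362), whereas *Slc22a23*, an orphan, was 3.48-fold higher (adjusted *p* = 0.00575). The organic anion transporter *Slco3a1* was called at every step, with 9.53 to 29.3 CPM in WT, 28.8 to 44.1 in HYP and 52.4 to 75.9 in PCC; its call in PCC vs. HYP was lost without any sample but PCC replicate 5.

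The remaining families carry vitamins, nucleosides, phosphate, choline and lipids, and 6 of 12 were lower and 4 higher. *Slc23a2* (chr3:124632492-124724252), the sodium-coupled vitamin C importer SVCT2, had 820, 875, 1211, 1723 and 1394 CPM in WT, 437, 353, 904, 749 and 655 in HYP and 293, 105, 249, 97.8 and 335 in PCC. HYP replicate 3 overlapped the lower WT samples, and every PCC sample was below every HYP and WT sample. The tumors were 5.58-fold below WT (log2 fold change -2.51, SE 0.38, adjusted *p* = 0.000761) and 2.87-fold below HYP (adjusted *p* = 0.0336). At the extremes, the samples ranked as in the cortex markers: WT replicate 4, highest in *Slc23a2*, was also highest in the cortex sum (53789), and PCC replicate 4, lowest in *Slc23a2*, was lowest in it (866.2). With the cortex level in the fit, the log2 fold change in PCC vs. WT was -1.34 (SE 0.26, adjusted *p* = 0.0173). The fatty acid carriers *Slc27a3* and *Slc27a1* were 3.03-fold and 2.02-fold lower in PCC (adjusted *p* = 0.00329 and 0.0262), the second without a call when PCC replicate 1, 2 or 4 or WT replicate 3 or 5 was left out. With the cortex level in the fit neither was called, with log2 fold changes of -0.73 in place of -1.63 for *Slc27a3* (adjusted *p* = 0.246) and -0.47 in place of -1.03 for *Slc27a1* (adjusted *p* = 0.921).

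The thiamine importer *Slc19a2* (1.47-fold), the phosphate importer *Slc20a1* (2.11-fold) and the choline transporter-like *Slc44a3* (2.85-fold) were lower as well (adjusted *p* = 0.0344, 0.00474 and 0.0225); the call of *Slc19a2* was lost without PCC replicate 2, 3 or 5 or WT replicate 1 or 2, and that of *Slc44a3* without PCC replicate 3. On the higher side were the 2 listed members of family 29, the equilibrative nucleoside transporter family. *Slc29a1*, or ENT1, had 17.4 to 38.5 CPM in WT, 77.4 to 106 in HYP and 115 to 152 in PCC (4.10-fold above WT, adjusted *p* = 0.000207). *Slc29a4*, the plasma membrane monoamine transporter that takes up dopamine and serotonin, had 27 to 107 CPM in WT, 144 to 277 in HYP and 204 to 650 in PCC (4.67-fold above WT, adjusted *p* = 0.00232). The proton-coupled folate carrier *Slc46a1* was 3.18-fold higher (adjusted *p* = 0.00145).

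**Figure D4:**
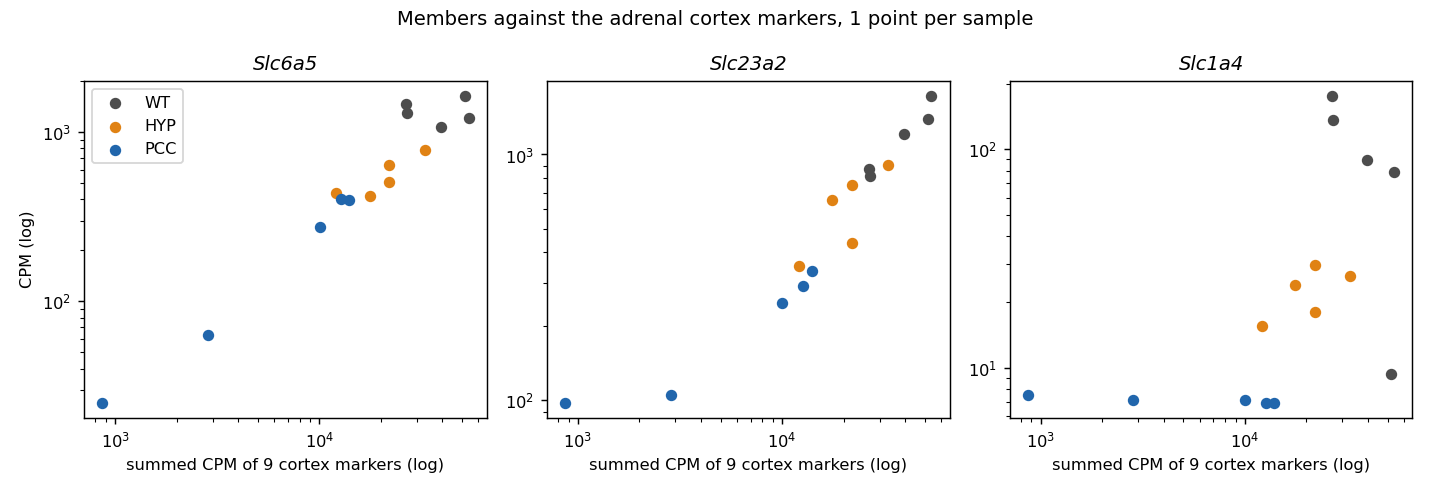
CPM of *Slc6a5*, *Slc23a2* and *Slc1a4* (log axis) against the summed CPM of 9 adrenal cortex markers (log axis), with 1 point per sample in WT (grey), HYP (orange) and PCC (blue). The tumors with the lowest cortex sums, 866.2 and 2845, had the lowest *Slc6a5* and *Slc23a2*, whereas in *Slc1a4* the WT sample with a cortex sum of 51726 had only 9.39 CPM; points share their libraries, and no test was made across them.

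In HYP vs. WT, the hyperplastic medulla already had more of the vesicle carrier *Slc10a4*, the sodium-calcium exchangers of the plasma membrane, *Slc29a1* and *Slc29a4*. It had less of the glycine transporters. *Slc8b1*, also of family 8, was 1.83-fold lower in HYP than in WT (adjusted *p* = 0.0362), with overlapping groups. That call was lost without several single samples. Of 68 members listed, 62 were tested: 27 were higher, 19 lower and 16 did not pass. The share called was 74.2%, against 72.1% of all 4108 genes tested (39.5% higher and 32.5% lower). The groups did not overlap for 30 members, 48.4% against 54.8% of all genes. The median log2 fold change was 0.48 for the members and -0.37 for all genes tested. Yet 32 of the 62 members and 1967 of the 4108 genes were fitted higher. Both are near an even split, where the sign of a median over already called genes can turn on few genes. Of the members called, 58.7% were higher, against 54.8% of all genes called. Scaled to the listed totals the shares were 88.9% and 89.3%, and to the recovered totals 73.2% and 75.8% (shifts of 0.46 and 0.19). With the authors' size factors they were 53.2% and 48.6%, and with DESeq2 56.1% and 53.1%. Without WT replicate 5 the counts were 29 and 20, and when the cortex marker level entered the fit as a covariate they were 0 and 3.

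Besides the carriers above, *Slc6a15*, a neutral amino acid transporter of neurons, had 0.284 to 1.21 CPM in WT, 2.41 to 4.79 in HYP and 0.388 to 2.01 in PCC. It was 5.34-fold higher in HYP than in WT (log2 fold change 2.32, SE 0.36, adjusted *p* = 0.00197), and its drop towards PCC did not pass (log2 fold change -1.53, SE 0.44, adjusted *p* = 0.0539) although HYP and PCC did not overlap. *Slc35f1*, an orphan carrier of the brain, was 3.52-fold higher in HYP (adjusted *p* = 0.0177). *Slc22a6* was 2.54-fold lower (adjusted *p* = 0.0171), and smaller falls were called for *Slc38a2* (1.78-fold, adjusted *p* = 0.00634) and *Slc20a1* (1.72-fold, adjusted *p* = 0.0206).

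In PCC vs. HYP, the tumors had more *Slc12a1*, *Slc9a2*, *Slc39a6*, *Slc45a1*, *Slc6a17* and *Slc35d3* and less *Slc36a2*, *Slc1a4*, *Slc23a2* and *Slc16a6*. Of 51 members listed, 48 were tested: 13 were higher, 9 lower and 26 did not pass. The share called was 45.8%, against 44.4% of all 3148 genes tested (21.8% higher and 22.6% lower). The groups did not overlap for 33 members, or 68.8% against 54.3% of all genes, and the median log2 fold change was 0.69 against 0.43. Of the members called, 59.1% were higher, against 49.2% of all genes called. Scaled to the listed totals the shares were 73.7% and 68.4%, and to the recovered totals 70.8% and 70.7% (shifts of 0.15 and 0.22). With the authors' size factors they were 64.0% and 61.3%, and with DESeq2 51.5% and 37.4%. Without HYP replicate 4, 9 were higher and 2 lower, and without HYP replicate 3, 8 and 4, so calls in both directions were lost when either sample was left out. When the cortex marker level entered the fit, 0 were higher and 1 lower.

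Single members differed in this. *Slc36a2* (5.20-fold, adjusted *p* = 0.0375) kept its call only where PCC replicate 2 or 5 was the sample left out, *Slc23a2* lost it without PCC replicate 2 or 3 or HYP replicate 3, 4 or 5, and *Slc16a6* (2.44-fold, adjusted *p* = 0.0247) without PCC replicate 2 or HYP replicate 2. *Slc1a4* kept its call without each sample in turn. Among the rises, *Slc2a13* (2.96-fold, adjusted *p* = 0.0175) and *Slc36a4* (2.39-fold, adjusted *p* = 0.0177) lost their calls without HYP replicate 3 or 4, and *Slc9a2* kept its call but dropped from a log2 fold change of 2.32 to 1.73 without PCC replicate 4.

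Over all 3 groups, 85 members had values in every sample. Group means rose from WT to HYP to PCC in 36 of them (42.4%, against 43.9% of 5492 genes) and fell in 33 (38.8% against 41.2%). HYP held the highest mean in 8, among them *Slc31a1*, *Slc8a2* and *Slc6a15*, and the lowest in 8, among them *Slc2a1* and *Slc6a17*. The members whose samples lay higher with no overlap at either step numbered 7 (8.24% against 7.52% of genes): *Slc2a12*, *Slc2a13*, *Slc8a3*, *Slc17a5*, *Slc29a1*, *Slc35d3* and *Slc39a6*. Not every one of these steps passed the test: *Slc17a5* and *Slc29a1* missed it in PCC vs. HYP (adjusted *p* = 0.18 and 0.229) and *Slc35d3* in HYP vs. WT (adjusted *p* = 0.0512). *Slc6a5* and *Slc6a9* were the 2 whose samples lay lower in this way (2.35% against 2.37%), with the second step of *Slc6a5* not tested. No member was called in opposite directions in HYP vs. WT and PCC vs. HYP. These 2 comparisons share the HYP samples.

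The order of the carriers by FPKM, which divides by gene length, differed between the groups. In WT, *Slc6a5* (172.8 FPKM, SD 22.9, n = 5) and *Slc23a2* (172.0, SD 47.3) led, followed by *Slc3a2* (127.4), *Slc39a7* (125.9) and *Slc38a2* (99.98), and each overlapped its neighbor in the order. Among the 98 members with values in HYP, which do not include *Slc3a2*, *Slc31a1* led with 294.0 FPKM (SD 104) and did not overlap the next of these, *Slc39a7* (100.3). In PCC, *Slc35d3* led (285.3, SD 97.1), followed by *Slc31a1* (188.1), *Slc29a4* (175.1) and *Slc39a6* (166.1), each overlapping its neighbor. Mean levels under 1 FPKM were found for 35 of 131 members with values in WT and for 25 of 128 in PCC. As a share of the summed CPM of the 85 members, *Slc6a5* took 19.5% to 27.3% in WT and 0.441% to 9.0% in PCC, and *Slc35d3* took 0.247% to 2.45% in WT and 9.23% to 19.1% in PCC.

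**Figure D5:**
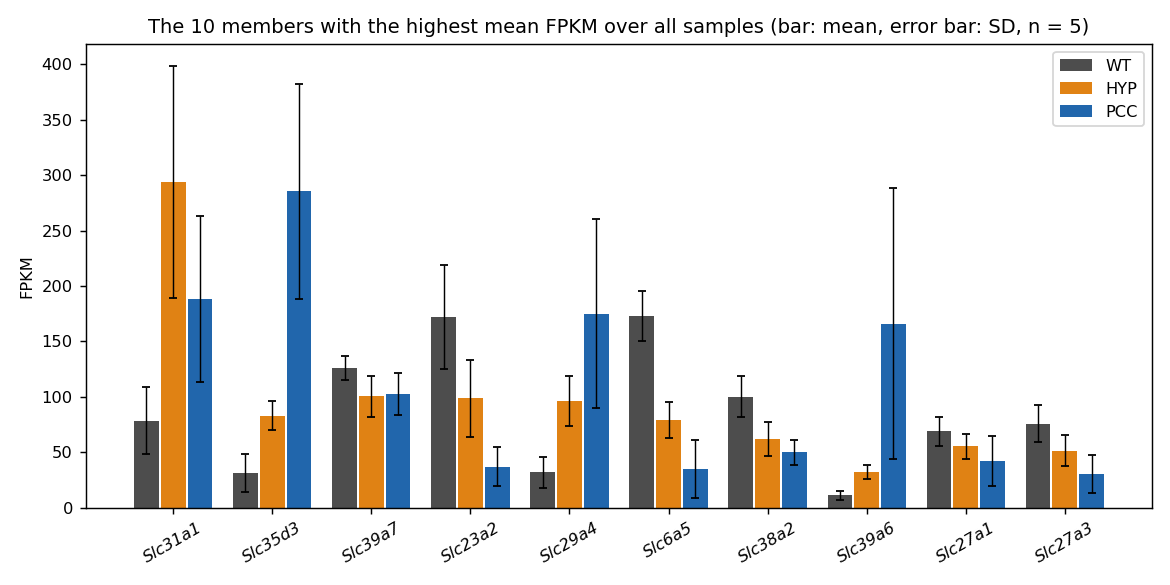
Mean FPKM of the 10 members with the highest mean over all samples, in WT (grey), HYP (orange) and PCC (blue), with error bars of 1 SD (n = 5). The leading carriers were *Slc6a5* and *Slc23a2* in WT, *Slc31a1* in HYP and *Slc35d3* in PCC.

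Carriers depend on ion pumps and partner proteins, of which lists were read from the same fits. Of 20 ion pump genes on the list, 8 were tested in PCC vs. WT. Of these, 4 were higher and 2 lower, against 46.7% and 38.5% of all genes tested. Of 22 carrier chaperones and regulators, only 6 were listed in the tables, which hold genes already called by the authors, and the 5 tested were all higher in PCC, where 46.7% of all genes tested were. They include *Car12*, a carbonic anhydrase of the cell surface that supplies bicarbonate and protons to exchangers, with a mean of 98.5 CPM in WT, 333 in HYP and 645 in the tumors, and *Emb*, a chaperone of monocarboxylate carriers, with 7.90, 13.7 and 26.1 CPM.

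Among others, low counts kept *Slc9a4*, *Slc12a8*, *Slc13a2*, *Slc17a2*, *Slc22a12*, *Slc26a3*, *Slc32a1* and *Slco1c1* out of the test wherever they were listed, and *Slc22a25* in PCC vs. WT and HYP vs. WT. *Slc26a3*, a chloride-bicarbonate exchanger of the gut, had 9 to 48 counts in the PCC libraries and 0 or 1 in WT, and *Slc22a25* had 8 to 34 and 0 to 3. *Slc9a4* had no counts in PCC and 1 to 10 in WT, and *Slco1c1* none in WT and 1 to 8 in PCC, differences that are within a few reads.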

How the data were processed

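RNA-seq libraries of 15 rats were prepared with a poly(A) kit that does not mark strand, so overlapping antisense transcripts cannot be told apart from a gene. The authors mapped reads to Rn06 and counted them; the submitters' processing notes name HISAT2 2.0.5 and featureCounts 1.5.0-p3. The deposited tables hold, per gene and sample, raw read counts, a signal (the count divided by a size factor) and FPKM. The authors' log2 fold changes were not used, and the authors' p-values served only to recover how many genes had been tested (18790, 18057 and 17454).

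Each table was fitted whole with edgeR 4.0.16 (R 4.3.3): filterByExpr, TMM, glmQLFit and glmQLFTest without covariates, with Benjamini-Hochberg adjustment over those numbers. Log2 fold changes come from each comparison's own fit, and CPM from 1 TMM scale over the 5492 genes with values in all 15 samples, on recovered library totals (count over FPKM and gene length, genes with at least 20 counts). A fold against a group at 0 uses a floor of 3 counts per library. The fits were tested on simulated data. Python 3.11.15, numpy 2.4.6, pandas 2.3.3 and matplotlib 3.10.9 were used otherwise. Alternatives were DESeq2 1.42.0, other scalings and filters, a replicate block, 1 fit of all samples, a cortex covariate, a 2-fold limit, adjustment over the listed genes and leaving out each sample.

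Members, gene lists and rules were chosen with earlier results of these data known. Named were, per comparison and direction, up to 10 members called, with at least 1 CPM on average and no overlap; the 10 with the highest FPKM; members called in opposite directions; and, in families of at least 4 members, the largest rise and fall in PCC vs. WT. Other members named in the text were chosen after their values were seen. The single results of 2 members are not reported here, and their values stay in the counts. No 2 samples agreed within counting noise.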

Additional observations from a re-analysis of the deposited data

Results flagged for a closer look

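In 9 of 147 groups of 5 samples checked, the highest sample stood apart from its group by Dixon's criterion. Chance alone meets it in about 1 of 20 groups of normally distributed values. The check was made on CPM without a log scale, and the chance rate for such values was not tested. In PCC, replicate 4 was the sample in 5 of these: *Slc12a1* had 10.7 CPM against 2.72 in the next sample, *Slc9a2* had 74.4 against 25.7, *Slc5a10* had 5.44 against 2.11, *Slc29a1* had 152.0 against 118.0 and *Slc11a2* had 358.0 against 142.0. This replicate held the highest PCC value for 30.2% of 126 members and for 25.8% of all 8036 genes with PCC values, and it had the lowest cortex marker sum (866.2 CPM).

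In WT, replicate 5 was highest for *Slc36a2*, with 28.4 CPM against 9.18, and for *Slc26a11*, a sulfate transporter, with 17.2 against 8.91. It was highest for 33.1% of 130 members and for 34.4% of all genes. In WT replicate 2, *Slco4a1* had 1.61 CPM against 0.633, and without that sample its log2 fold change in PCC vs. WT was 2.50 in place of 1.82. In HYP, *Slc39a8* had 25.3 CPM in replicate 3 against 12.2.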

How the results depend on the processing

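The members called higher and lower numbered 59 and 38 in PCC vs. WT, 27 and 19 in HYP vs. WT and 13 and 9 in PCC vs. HYP. Scaling to the listed totals left 16, 4 and 5 called lower in the 3 comparisons, and scaling to the recovered totals left 20 and 11 in the first 2 of them. With the cortex covariate, 14 higher and 7 lower, 0 and 3, and 0 and 1 remained. Among the members named by rule, the fold change of *Slco4a1* (-0.0022) changed sign in PCC vs. WT. So did those of *Slc23a2* (0.0326), *Slc27a3* (0.0342) and *Slc39a7* (0.0699) in HYP vs. WT. Of all members called in the main fit, 3 changed sign in PCC vs. WT and 3 in HYP vs. WT. Requiring a 2-fold change left 39 higher in PCC vs. WT and 11 lower in HYP vs. WT, and 10 counts in every sample left 12 lower there, where fewer genes are tested. One fit of all 15 samples gave 10 lower in HYP vs. WT and 22 higher in PCC vs. HYP. Adjusting over the listed genes alone gave 30 lower in HYP vs. WT and 29 higher and 16 lower in PCC vs. HYP, and DESeq2 gave 16 lower there. The causes were not tested, except where fewer genes or samples enter by construction.

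Leaving out 1 sample at a time gave 44 to 56 higher and 29 to 42 lower in PCC vs. WT, 20 to 29 and 14 to 20 in HYP vs. WT, and 8 to 18 and 2 to 12 in PCC vs. HYP. Of the members called, 72 to 88 of 97, 33 to 43 of 46 and 10 to 22 of 22 kept their call, and none changed direction.

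Samples with the same replicate number deviated together little (correlations from -0.13 to 0.18, -0.11 to 0.26 and -0.24 to 0.25 in the 3 comparisons). In these, 2, 2 and 1 of 5 samples were closest to their own number. The labels do not say what the number stands for, and these correlations cannot exclude a shared batch. The replicate block gave 51 higher and 34 lower in PCC vs. WT, 23 and 14 in HYP vs. WT and 6 and 1 in PCC vs. HYP.

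Members under 1 FPKM, 35 of 131 in WT, rest on few reads, and a change in them is often not detectable at this depth. Genes that the authors did not call are not in the tables used here, so no statement on unchanged carriers is possible.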
